A study of Homo sapiens with 14 samples.

Results

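The genes described here are 47 genes of the ATF4 amino acid stress response, followed across HEK 293 cells in which a subunit of the cleavage factor CFIm was depleted or overexpressed. They were chosen by name, with earlier results of these data known, so their counts are not independent evidence. Of the 47, 46 were found in a table of 18006 genes. XPOT was not analysed here. All 46 passed the filter on low counts and were tested with 12080 genes in all. They fall into 6 groups by role: 8 transcription regulators, 8 amino acid transporters, 6 serine, glycine and one-carbon enzymes, 6 other amino acid enzymes, 12 aminoacyl-tRNA synthetases, and 6 stress signalling, secreted or surface proteins.

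RNA was sequenced in 14 libraries of HEK 293, an established human embryonic kidney cell line. NUDT21 encodes the subunit CFIm25 and CPSF6 the subunit CFIm68, which belong to a complex that helps to choose the poly(A) site of nascent transcripts. The groups were control cells of wild type genotype (n = 3), cells depleted of CFIm25 by siRNA (n = 2), cells overexpressing CFIm25 (n = 3), cells depleted of CFIm68 by siRNA (n = 3) and cells overexpressing CFIm68 (n = 3). Knockdown used Lipofectamine RNAiMAX. Whether controls were given an empty vector or a control siRNA, which construct drove overexpression, and whether the overexpressing cells are single clones were not given in the sources used here. Since no label ties replicates to separate cultures, the p-values cover the spread between these libraries only, and that spread may be technical.

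ATF4 is a bZIP transcription factor whose mRNA is translated more when the initiation factor eIF2 is phosphorylated, as in amino acid shortage or stress of the endoplasmic reticulum. The protein pairs with C/EBP family partners and binds C/EBP-ATF response elements near genes for amino acid uptake, amino acid synthesis and tRNA charging. Its activity therefore depends on translation as well as on its mRNA level, and RNA counts show the mRNA level only.

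To show what such elements look like near these genes, the core TGATGNAA and its reverse complement TTNCATCA were searched on both strands in RefSeq promoter windows (GRCh38.p14), each 300 bases long with 250 bases before and 50 after an annotated start. A window was found for 36 of the 46 genes, and 16 of these (44.4%) held the core, against 1217 of 27305 genes in the whole table (4.46%). The stricter form TGATGCAA, which is one of the forms counted above, was in the windows of 11 of the 36 genes (30.6%) and of 1.08% of all genes. Genes differ in their number of windows: per window the core was in 16 of 57 (28.1%) against 3.62% of all windows. The following stretches of at most 30 bases, 5′ to 3′ on the gene's strand with the core in capitals, are from 7 genes whose mRNA rose in CFIm25 overexpression, at least 1 of them in each role group whose windows held the core.
ASNS: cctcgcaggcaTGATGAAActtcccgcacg
CHAC1: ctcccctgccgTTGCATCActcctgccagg
SLC1A4: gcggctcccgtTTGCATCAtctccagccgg
CARS1: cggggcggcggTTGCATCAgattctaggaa
GARS1: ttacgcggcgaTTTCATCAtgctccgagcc
JDP2: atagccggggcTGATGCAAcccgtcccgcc
ATF3: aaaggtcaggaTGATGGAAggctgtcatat
In ASNS, at chr7:97872458-97872487 on the minus strand, the first letter of the core lies at -68 from an annotated start, and in CHAC1, at chr15:40953251-40953280 on the plus strand, at -209. The cores of SLC1A4 (chr2:64989381-64989410, plus strand), CARS1 (chr11:3057407-3057436, minus strand) and JDP2 (chr14:75427995-75428024, plus strand) begin at -7, -2 and -16, close to the start. Those of GARS1 (chr7:30594834-30594863, plus strand) and ATF3 (chr1:212565205-212565234, plus strand) begin at -33 and -191. These are matches of letters, not measured binding sites. The core was in 7 of 10 synthetase genes with a window, and it was in 0 of 9 cytosolic synthetase genes outside the list that have a window. With the core in 4.46% of all genes, 0 of 9 is near the share of all genes. Among the other role groups it was in 3 of 7 regulators, 4 of 7 transporters and 2 of 4 other amino acid enzymes. It was in 0 of 3 serine, glycine and one-carbon enzymes and 0 of 5 stress signalling, secreted and surface proteins.

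Total counts ranged from 15822467 to 33895308 per library, the deepest being a CFIm25 knockdown library, and levels are given as CPM, counts scaled to the TMM-adjusted library size, in replicate order. Log2 CPM correlated across genes at r = 0.996 to 0.998 within groups. The targeted transcripts moved as labelled. NUDT21 read 537, 500.4 and 506 CPM in control, 54.6 and 52.9 in CFIm25 knockdown and 782, 734 and 671 in CFIm25 overexpression, with 242, 231 and 224 in CFIm68 knockdown and 646, 597 and 549.7 in CFIm68 overexpression. CPSF6 read 274, 262 and 268 CPM in control, 40.5, 41.9 and 42.5 in CFIm68 knockdown and 717, 749.9 and 724 in CFIm68 overexpression, with 526 and 540.3 in CFIm25 knockdown and 263, 256 and 237 in CFIm25 overexpression. By the fitted model overexpression was 1.42-fold for NUDT21 and 2.72-fold for CPSF6, and knockdown 9.57-fold and 6.44-fold. Of 8 HEK 293 markers NEFL, CDH2, VIM and KRT18 were above 140 CPM in every library, whereas NEFM was at 0.852 CPM or less. The others, PAX2, LIN28B and GATA3, also passed the filter on low counts. Against control, 3 of the 8 were higher and 4 lower in CFIm25 overexpression and 3 and 1 in CFIm68 overexpression. The counts were 1 and 2 in CFIm25 knockdown and 1 and 3 in CFIm68 knockdown. The shares of all genes in these comparisons are given below. Of 6 blood markers PTPRC, HBB and HBA1 were at 0 everywhere, and of 6 keratinocyte markers in the table KRT5, KRT6A, KRT7 and KRT14 were at 0.167 CPM or less. The summed level of the keratinocyte markers was 4.88 to 5.33 CPM in control. With CFIm25 it was 11.02 to 13.97 in the overexpressing and 6.05 and 7.72 in the depleted cells, with CFIm68 it was 3.83 to 4.12 in the overexpressing and 10.6 to 14.9 in the depleted cells, most of it KRT17. The 7 mesenchymal markers, with COL1A2 and DCN at 0, summed to 50.9 to 55.4 CPM in control and to between 25.3 and 68.6 elsewhere, nearly all of it COL1A1. The part of these markers in the results was not tested.

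The ATF4 response genes were higher than control in 3 of the 4 perturbed groups, most of them in CFIm25 overexpression. There 42 of 46 passed the test as higher (adjusted p under 0.05 by the quasi-likelihood test of edgeR, adjusted by Benjamini-Hochberg over 12080 genes) and 1 as lower, with a median log2 change of 0.85. Of all tested genes 27.7% were higher and 29.1% lower in that comparison, with a median of -0.002. In CFIm25 knockdown 36 were higher and 1 lower, with a median of 0.42, against 24.4% and 23.2% of all genes. In CFIm68 overexpression 28 were higher and 2 lower, with a median of 0.28, against 14.5% and 15.4%. CFIm68 knockdown stood apart, with 14 higher, 11 lower and a median of -0.00, shares near those of all genes (28.3% and 28.1%). In bulk RNA, a change in the number of responding cells and a change in RNA per cell cannot be told apart. The 4 comparisons share the same 3 control libraries, so their values are set side by side and not as independent evidence.

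**Figure D1:**
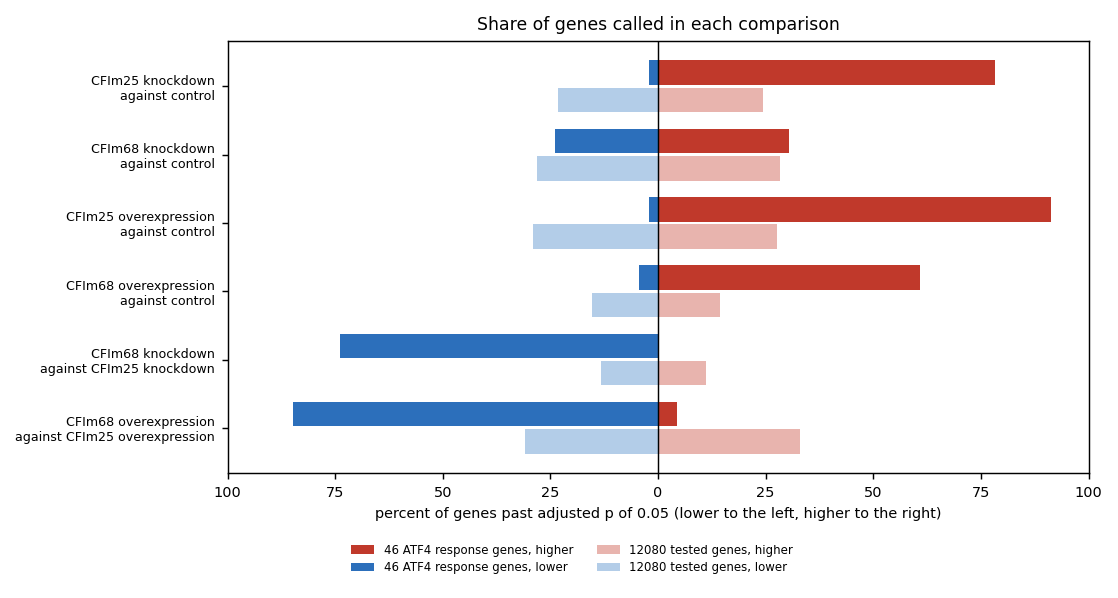
Percent of the 46 ATF4 response genes (dark bars) and of all 12080 tested genes (pale bars) past an adjusted p of 0.05 in the 6 planned comparisons, with higher genes to the right of 0 and lower genes to the left. The dark bars reach 91.3% higher in CFIm25 overexpression and 84.8% lower where CFIm68 overexpression is set against CFIm25 overexpression, while the 2 directions are near even in CFIm68 knockdown.

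The order of the group means is as follows. The highest of the 5 group means belonged to CFIm25 overexpression in 39 of 46 genes, against 26.6% of all genes, to CFIm25 knockdown in 5 and to CFIm68 overexpression in 2. The lowest belonged to CFIm68 knockdown in 22 (47.8%, against 22.2% of all genes) and to control in 17 (37.0%, against 9.35%). The 7 genes whose highest mean was elsewhere were ATF4, PYCR1, SARS1, ALDH18A1 and GDF15 (CFIm25 knockdown) and ATF5 and ALDH1L2 (CFIm68 overexpression). When the CFIm25 groups were set against each other, a comparison added after the data were seen, 35 of 46 genes were higher with overexpression and 1, SARS1, was lower (27.5% and 28.6% of all genes). Most of these genes were thus higher than control in both CFIm25 groups. The groups differ in both subunits, since NUDT21 was also 2.21-fold lower in CFIm68 knockdown, where 14 genes were higher and 11 lower, and CPSF6 was 1.99-fold higher in CFIm25 knockdown.

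**Figure D2:**
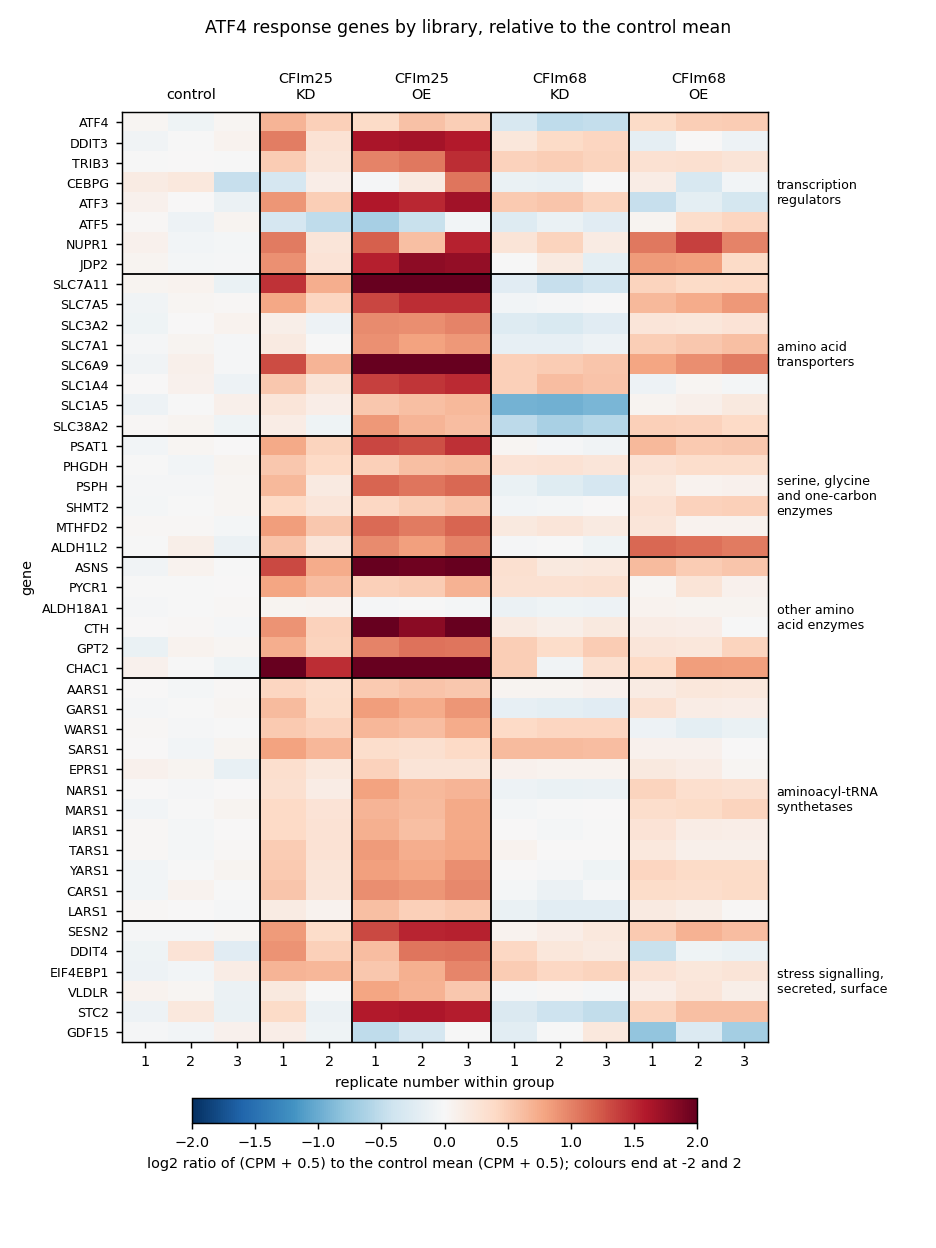
Each row is 1 of the 46 genes and each column 1 of the 14 libraries, coloured by the log2 ratio of its level to the control mean (0.5 CPM added to both), with KD for knockdown and OE for overexpression and with colours that end at -2 and 2. The 3 CFIm25 overexpression columns are red in all but a few rows, the 2 CFIm25 knockdown columns are paler red, the first more than the second, and the CFIm68 knockdown columns are mixed.

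Among the 8 transcription regulators 6 rose in each CFIm25 group, 4 in CFIm68 overexpression and 3 in CFIm68 knockdown. Over all tested genes 27.7% rose in CFIm25 overexpression, 24.4% in CFIm25 knockdown, 14.5% in CFIm68 overexpression and 28.3% in CFIm68 knockdown. The shares that fell were 29.1%, 23.2%, 15.4% and 28.1% in that order, and they apply to each role group below. ATF4 itself rose in 3 groups and fell in CFIm68 knockdown, and its rise in CFIm25 overexpression, 0.49, was below the median of 0.85 over the 46 genes. ATF4 (chromosome 22, 39519695 to 39522685, GENCODE 29 on hg38) read 216, 198 and 215 CPM in control, 337 and 291 in CFIm25 knockdown, 272, 315 and 295 in CFIm25 overexpression, 167, 148 and 150.1 in CFIm68 knockdown and 272, 295 and 296 in CFIm68 overexpression. No library of the CFIm68 knockdown group reached the lowest control, and every library of the other 3 perturbed groups lay above the highest control. Its log2 change was 0.58 ± 0.07 (SE) in CFIm25 knockdown (edgeR adjusted p = 8.4e-08), 0.49 ± 0.06 in CFIm25 overexpression (1.8e-07), 0.46 ± 0.06 in CFIm68 overexpression (2.5e-06) and -0.43 ± 0.06 in CFIm68 knockdown (1.3e-06). In order of group means, CFIm25 knockdown (314 ± 32.6 CPM, mean ± SD), CFIm25 overexpression (294 ± 21.5) and CFIm68 overexpression (288 ± 13.8) were close. CFIm25 overexpression did not differ past the test from CFIm25 knockdown (-0.10 ± 0.07, 95% interval -0.24 to 0.05) or from CFIm68 overexpression (-0.03 ± 0.06, interval -0.15 to 0.10). Control (209 ± 10.2) and CFIm68 knockdown (155 ± 10.7) followed.

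DDIT3 and ATF3 were high in CFIm25 overexpression and not in CFIm68 overexpression. DDIT3, which encodes CHOP, a factor of the late stress response, read 17.5, 18.2 and 19.2 CPM in control and 57.8, 59.1 and 55.9 in CFIm25 overexpression, but 16.2, 18.4 and 17.1 in CFIm68 overexpression. It read 37.9 and 22.4 in CFIm25 knockdown and 21.6, 23.9 and 24.8 in CFIm68 knockdown. CFIm25 overexpression was 3.14-fold above control without overlap (log2 change 1.65 ± 0.11, edgeR adjusted p = 1.1e-12), and CFIm68 overexpression overlapped control (-0.09 ± 0.13, edgeR adjusted p = 0.65). ATF3, a stress-induced bZIP factor, read 11.5, 10.9 and 9.93 CPM in control, 20.3 and 15.3 in CFIm25 knockdown, 33.8, 31.4 and 35.5 in CFIm25 overexpression, 15.7, 16.01 and 14.9 in CFIm68 knockdown and 7.73, 9.30 and 8.34 in CFIm68 overexpression. It rose in both CFIm25 groups and in CFIm68 knockdown and fell in CFIm68 overexpression, where its log2 change was -0.34 ± 0.12 (edgeR adjusted p = 0.028) against 1.64 ± 0.10 with CFIm25 overexpression (4.5e-14). The fall did not pass with limma-voom (adjusted p = 0.05) or, in edgeR, without control replicate 1 or 2 or CFIm68 overexpression replicate 1 or 3 (0.065 to 0.11). DDIT3 shares exonic bases with MARS1 on the other strand and with a further gene on its own, and the strand setting of the counting was not given in the sources used here, so its counts may hold reads of these genes.

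JDP2 and NUPR1 stayed below 5 CPM in every library. JDP2, a bZIP repressor, read 0.908, 0.819 and 0.832 CPM in control, 2.04 and 1.14 in CFIm25 knockdown, 3.47, 4.19 and 4.06 in CFIm25 overexpression, 0.852, 1.03 and 0.688 in CFIm68 knockdown and 1.95, 1.89 and 1.25 in CFIm68 overexpression. Its rise in CFIm25 overexpression, 4.53-fold, was the largest among the regulators (log2 change 2.18 ± 0.24, edgeR adjusted p = 1.2e-08). NUPR1, a small chromatin-associated stress protein, read 1.30, 1.15 and 1.164 CPM in control, 3.39, 2.09 and 4.46 in CFIm25 overexpression and 3.05, 3.90 and 2.89 in CFIm68 overexpression, beside 2.996 and 1.53 in CFIm25 knockdown and 1.53, 1.81 and 1.42 in CFIm68 knockdown. It rose in both overexpression groups and in CFIm25 knockdown, where the call was lost without replicate 1 (0.34, edgeR adjusted p = 0.46), without control replicate 2 or 3 and with limma-voom. Its overexpression libraries overlapped each other, and the difference of CFIm68 from CFIm25 overexpression was -0.01 ± 0.23 on the log2 scale with an interval of -0.47 to 0.46. Of the remaining regulators TRIB3, a pseudokinase that dampens the response, rose in all 4 perturbed groups (log2 changes of 0.30 to 1.21), though in CFIm68 overexpression not with the change of neighbouring genes removed (0.08, adjusted p = 0.64) or with any one control left out. CEBPG, a dimer partner of ATF4, passed in none of the 4 comparisons with control and stood at 2.48 ± 0.712 CPM in control. ATF5, a relative of ATF4, was the single gene lower in CFIm25 overexpression (-0.39 ± 0.12) and in CFIm25 knockdown (-0.44 ± 0.13). Both ATF5 calls were lost when the median change of the 50 nearest genes was removed (-0.18 and -0.30, adjusted p = 0.23 and 0.061), a setting chosen after the data were seen. Adjusted p-values under this setting take the median as exact and leave out the spread among the neighbouring genes.

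**Figure D3:**
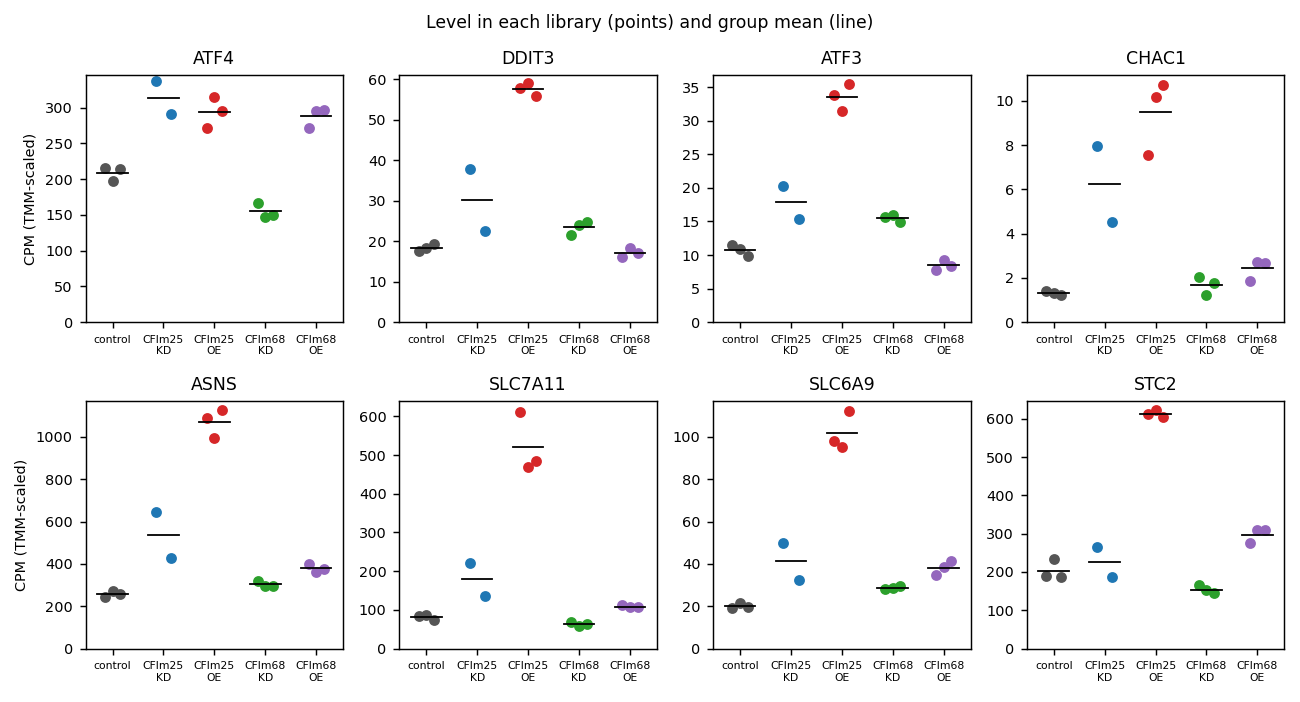
CPM of 8 of the genes in each library (points) with the group mean (line), on axes that start at 0 and differ between genes, with KD for knockdown and OE for overexpression. ATF4 is at similar levels in CFIm25 knockdown and both overexpression groups, whereas DDIT3, ATF3, CHAC1, ASNS, SLC7A11, SLC6A9 and STC2 are highest in the 3 CFIm25 overexpression libraries (for CHAC1 with CFIm25 knockdown replicate 1 among them).

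All 8 amino acid transporters rose in CFIm25 overexpression, by log2 changes of 0.60 to 2.68. In CFIm25 knockdown 5 rose, in CFIm68 overexpression 6, and in CFIm68 knockdown 2 rose and 5 fell. SLC7A11, the cystine and glutamate exchanger that feeds glutathione synthesis, read 85.1, 85.5 and 74.3 CPM in control, 222 and 136 in CFIm25 knockdown, 612, 468 and 484 in CFIm25 overexpression, 69.3, 59.4 and 62.2 in CFIm68 knockdown and 111, 107 and 107 in CFIm68 overexpression. It was 6.4-fold above control in CFIm25 overexpression (log2 change 2.68 ± 0.11, edgeR adjusted p = 2.8e-17) and 2.18-fold above in CFIm25 knockdown (1.7e-08). The 2 knockdowns moved it in opposite directions, since it fell in CFIm68 knockdown (-0.36 ± 0.11, edgeR adjusted p = 0.0096), a fall that did not pass with DESeq2 (adjusted p = 0.062). SLC6A9, the glycine transporter GlyT1, read 19.00, 21.4 and 19.6 CPM in control, 49.99 and 32.4 in CFIm25 knockdown, 98.01, 95.1 and 112 in CFIm25 overexpression, 27.9, 28.6 and 29.7 in CFIm68 knockdown and 34.8, 38.5 and 41.5 in CFIm68 overexpression. Every perturbed library lay above every control for SLC6A9, with the widest gap in CFIm25 overexpression (5.08-fold, edgeR adjusted p = 1.1e-16).

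SLC1A4, a carrier of alanine, serine and cysteine whose promoter core is shown above, read 22.1, 23.5 and 20.4 CPM in control, 32.2 and 26.5 in CFIm25 knockdown, 57.3, 59.96 and 62.8 in CFIm25 overexpression, 30.9, 34.1 and 32.98 in CFIm68 knockdown and 20.4, 22.6 and 21.3 in CFIm68 overexpression. It rose 2.73-fold with CFIm25 overexpression and 1.48-fold with CFIm68 knockdown (edgeR adjusted p = 4.5e-15 and 5.1e-07), and with CFIm68 overexpression it overlapped control (-0.03 ± 0.09, interval -0.21 to 0.14). The genes around SLC1A4 had a median change of -0.25 in that comparison, and without it SLC1A4 stood at 0.22 (adjusted p = 0.071). SLC7A5, the light chain of the large neutral amino acid transporter, read 152, 163 and 161 CPM in control, 273 and 214 in CFIm25 knockdown, 403, 444 and 444 in CFIm25 overexpression, 153, 157 and 159.5 in CFIm68 knockdown and 248, 265 and 289.8 in CFIm68 overexpression. Its partner heavy chain SLC3A2 rose in both overexpression groups (0.96 ± 0.06 with CFIm25 and 0.25 ± 0.06 with CFIm68, the second not with the change of neighbouring genes removed, 0.15 at an adjusted p of 0.058), as SLC7A5 did (1.44 ± 0.07 and 0.75 ± 0.07). In CFIm25 knockdown SLC7A5 rose (0.61 ± 0.07). SLC3A2 was at 0.01 ± 0.06 there and did not pass (edgeR adjusted p = 0.91), but passed as higher with the change of neighbouring genes removed (0.17, adjusted p = 0.027). The arginine carrier SLC7A1 and the glutamine carriers SLC1A5 and SLC38A2 rose in CFIm25 overexpression (0.86, 0.60 and 0.73) and fell in CFIm68 knockdown (-0.14, -0.94 and -0.58). The fall of SLC1A5, 1.91-fold to 287, 284 and 292 CPM from 512, 546 and 592 in control, was the largest decrease of any of the 46 genes against control that passed the test. With the change of neighbouring genes removed, the SLC7A1 fall was lost (-0.03, adjusted p = 0.61), and SLC7A5 in CFIm68 knockdown went from -0.02 to 0.25 (adjusted p = 0.003).

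The 6 enzymes of serine, glycine and one-carbon metabolism rose together in both CFIm25 groups. All 6 passed as higher in CFIm25 overexpression (median log2 change 1.02) and in CFIm25 knockdown (0.46), 4 in CFIm68 overexpression, and 2 in CFIm68 knockdown, where PSPH fell. PSAT1, the aminotransferase of the serine pathway, read 109.7, 117 and 114 CPM in control, 192 and 155 in CFIm25 knockdown, 287, 277 and 312 in CFIm25 overexpression, 116, 112 and 108 in CFIm68 knockdown and 179, 164 and 165 in CFIm68 overexpression. PSPH, the phosphatase that completes serine synthesis, read 43.6, 43.9 and 45.7 CPM in control, 70.1 and 50.6 in CFIm25 knockdown, 100.5, 94.01 and 99.5 in CFIm25 overexpression, 40.3, 37.6 and 35.1 in CFIm68 knockdown and 51.3, 46.8 and 46.99 in CFIm68 overexpression. Both were more than 2-fold above control in CFIm25 overexpression without overlap (PSAT1 2.57-fold and PSPH 2.21-fold, edgeR adjusted p = 3.2e-16 and 2.2e-12). In CFIm68 overexpression PSAT1 rose 1.49-fold (1.1e-07 by edgeR, adjusted) and PSPH did not pass (0.12 ± 0.09, interval -0.05 to 0.30). The fall of PSPH in CFIm68 knockdown, -0.24 ± 0.08, was lost without control replicate 3 or CFIm68 knockdown replicate 3 (edgeR adjusted p = 0.064 and 0.087). PHGDH, which opens the serine pathway, rose in all 4 groups by log2 changes of 0.27 to 0.57.

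MTHFD2 and ALDH1L2 act in the mitochondrial folate pathway and split between the overexpression groups. MTHFD2 read 184, 184 and 177 CPM in control, 326 and 264 in CFIm25 knockdown, 397, 376 and 408 in CFIm25 overexpression, 209, 214 and 205 in CFIm68 knockdown and 214, 190.1 and 189.8 in CFIm68 overexpression. ALDH1L2 read 40.5, 44.2 and 37.4 CPM in control, 60.6 and 48.4 in CFIm25 knockdown, 79.2, 71.9 and 81.2 in CFIm25 overexpression, 39.9, 40.7 and 38.2 in CFIm68 knockdown and 90.7, 87.5 and 84.1 in CFIm68 overexpression. MTHFD2 was higher with CFIm25 than with CFIm68 overexpression in all libraries, whereas ALDH1L2 was higher with CFIm68 in all. The difference of CFIm68 from CFIm25 overexpression was -0.99 ± 0.06 for MTHFD2 and 0.17 ± 0.07 for ALDH1L2 (edgeR adjusted p = 7.7e-14 and 0.034). With the change of neighbouring genes removed, the MTHFD2 difference was -0.61 (adjusted p = 2e-09). MTHFD2 then also passed as higher than control in CFIm68 overexpression (0.42, adjusted p = 1.3e-05). The ALDH1L2 difference did not pass with DESeq2, with a filter of 1 CPM in 3 libraries or with the compared groups fitted alone (adjusted p = 0.053 in each). SHMT2, the mitochondrial serine hydroxymethyltransferase, rose by 0.50 ± 0.05 with CFIm25 and 0.41 ± 0.05 with CFIm68 overexpression, and the difference between them, -0.09 ± 0.05, was not past the threshold (edgeR adjusted p = 0.14) until the change of neighbouring genes was removed (-0.26, adjusted p = 0.00015).

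Of the 6 other amino acid enzymes 5 rose in each CFIm25 group, 3 in CFIm68 overexpression and 3 in CFIm68 knockdown, where ALDH18A1 fell. CHAC1, a glutathione-degrading enzyme that is induced downstream of ATF4, read 1.42, 1.31 and 1.22 CPM in control, 7.95 and 4.55 in CFIm25 knockdown, 7.55, 10.2 and 10.7 in CFIm25 overexpression, 2.04, 1.24 and 1.78 in CFIm68 knockdown and 1.88, 2.73 and 2.697 in CFIm68 overexpression. Its rises of 7.11-fold and 4.59-fold in the CFIm25 groups (log2 changes 2.83 ± 0.23 and 2.20 ± 0.25, edgeR adjusted p = 2.5e-11 and 4.4e-08) were the largest of the 46 genes in either. At this low level the library values of CFIm68 knockdown and control overlapped (0.37 ± 0.29, interval -0.22 to 0.97). ASNS, asparagine synthetase, read 245, 269.5 and 256 CPM in control, 645 and 428 in CFIm25 knockdown, 1087, 995 and 1126 in CFIm25 overexpression, 321, 295 and 297 in CFIm68 knockdown and 399.6, 364 and 377 in CFIm68 overexpression. All perturbed libraries were above all controls for ASNS, by 4.16-fold with CFIm25 overexpression, 2.09-fold with CFIm25 knockdown, 1.48-fold with CFIm68 overexpression and 1.19-fold with CFIm68 knockdown (edgeR adjusted p = 2.5e-17, 3.9e-10, 1e-05 and 0.015). The last of these calls was lost with the change of neighbouring genes removed (0.09, adjusted p = 0.39), with DESeq2 (0.094) and without control replicate 1 or CFIm68 knockdown replicate 1.

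CTH, the cystathionine lyase that makes cysteine, and GPT2, the mitochondrial alanine aminotransferase, were also highest in CFIm25 overexpression and next in CFIm25 knockdown. CTH read 22.7, 23.1 and 22.2 CPM in control, 42.5 and 31.4 in CFIm25 knockdown, 92.9, 80.3 and 100.4 in CFIm25 overexpression, 25.7, 24.7 and 25.98 in CFIm68 knockdown and between 22.5 and 25.2 in CFIm68 overexpression. GPT2 read 13.2, 15.2 and 14.97 CPM in control, 24.3 and 19.8 in CFIm25 knockdown, 29.4, 31.2 and 30.8 in CFIm25 overexpression, 20.5, 18.9 and 20.8 in CFIm68 knockdown and 17.1, 17.04 and 19.8 in CFIm68 overexpression. CTH rose in CFIm25 overexpression (2.01 ± 0.09) and CFIm25 knockdown (0.69 ± 0.10) and did not pass in the CFIm68 groups (0.10 ± 0.10 with overexpression and 0.17 ± 0.09 with knockdown). GPT2 rose in all 4, in CFIm68 overexpression by 0.31 ± 0.10, which did not pass with the change of neighbouring genes removed (adjusted p = 0.094) or without control replicate 1 or CFIm68 overexpression replicate 3. Of the 2 enzymes of proline synthesis, PYCR1 rose in 3 groups (0.71 in CFIm25 knockdown, 0.57 in CFIm25 overexpression and 0.32 in CFIm68 knockdown on the log2 scale). ALDH18A1, which makes the proline precursor, stood between 438 ± 4.32 and 492 ± 4.96 CPM over the groups and passed only in CFIm68 knockdown, where it decreased by 0.11 on the log2 scale (SE 0.04), a call lost without filtering (adjusted p = 0.08) and without any one CFIm68 knockdown library.

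All 12 aminoacyl-tRNA synthetase genes, whose products charge tRNAs with amino acids in the cytosol, rose in CFIm25 overexpression, by log2 changes of 0.33 to 0.92. In CFIm25 knockdown 11 rose (all but LARS1), in CFIm68 overexpression 8 rose and WARS1 fell, and in CFIm68 knockdown 2 rose (WARS1 and SARS1) and 2 fell (GARS1 and LARS1). CARS1, for cysteine, read 78.6, 85.8 and 81.7 CPM in control, 120.4 and 97.2 in CFIm25 knockdown, 156, 151 and 159.8 in CFIm25 overexpression, 80.2, 75.8 and 80.7 in CFIm68 knockdown and 106, 105 and 106 in CFIm68 overexpression. YARS1, for tyrosine, read 358, 372 and 386 CPM in control, 534 and 447 in CFIm25 knockdown, 656, 638 and 712 in CFIm25 overexpression, 373, 367 and 350.0 in CFIm68 knockdown and 499, 484 and 487 in CFIm68 overexpression. Each was highest with CFIm25 overexpression (1.9-fold and 1.8-fold, edgeR adjusted p = 7.7e-13 and 6.1e-13) and overlapped control in CFIm68 knockdown.

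GARS1 fell in CFIm68 knockdown and WARS1 in CFIm68 overexpression. GARS1, for glycine, read 238, 241 and 248 CPM in control, 376 and 314 in CFIm25 knockdown, 435, 406 and 445 in CFIm25 overexpression, 216, 211 and 206 in CFIm68 knockdown and 299.6, 268 and 267 in CFIm68 overexpression. It rose in 3 groups and fell in CFIm68 knockdown (-0.20 ± 0.06, edgeR adjusted p = 0.0052). WARS1, for tryptophan, read 264, 256 and 259 CPM in control, 372 and 359.6 in CFIm25 knockdown, 410.5, 401 and 437 in CFIm25 overexpression, 342, 349 and 352 in CFIm68 knockdown and 242, 227 and 236 in CFIm68 overexpression. It rose in 3 groups and fell in CFIm68 overexpression (-0.14 ± 0.05, edgeR adjusted p = 0.022). The 50 genes nearest to WARS1 had a median change of -0.21 in that comparison, and without it WARS1 stood at 0.07 (adjusted p = 0.33). The fall was also lost without control replicate 1 or CFIm68 overexpression replicate 2. SARS1, for serine, rose in both knockdowns (0.74 ± 0.05 with CFIm25 and 0.63 ± 0.05 with CFIm68) and in CFIm25 overexpression (0.35 ± 0.05), and the difference of CFIm25 overexpression from CFIm25 knockdown was -0.38 ± 0.05 (edgeR adjusted p = 8.4e-07).

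Per kilobase of annotated exon, SLC1A5 (165 CPM per kb), ALDH18A1 (125) and NARS1 (118) were highest in control and JDP2 (0.137) was lowest. The length joins the exons of all annotated transcripts of a gene, and which of them are expressed was not determined. Levels are thus compared between genes only roughly. In CFIm25 overexpression ASNS rose from 57.7 to 240.0 CPM per kb and stood beside SLC1A5 (249.9). ATF4 stood at 83.2 CPM per kb in control.

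Among stress signalling, secreted and surface proteins 5 of 6 rose in CFIm25 overexpression, 3 in CFIm25 knockdown and 3 in CFIm68 overexpression, and in CFIm68 knockdown 2 rose and STC2 fell. STC2, the secreted glycoprotein stanniocalcin-2, read 189, 234 and 186 CPM in control, 265 and 187 in CFIm25 knockdown, 611, 623 and 606 in CFIm25 overexpression, 165, 153 and 144 in CFIm68 knockdown and 276, 308 and 308 in CFIm68 overexpression. It was 3.02-fold and 1.47-fold above control in the overexpression groups (edgeR adjusted p = 7.8e-15 and 1.7e-05), and in CFIm25 knockdown 1 library lay above the controls and 1 among them. SESN2, a leucine sensor that restrains mTORC1, read 41.3, 41.4 and 43.2 CPM in control, 76.4 and 54.3 in CFIm25 knockdown, 105, 122 and 122 in CFIm25 overexpression, 44.01, 45.96 and 48.6 in CFIm68 knockdown and 60.8, 68.7 and 64.5 in CFIm68 overexpression. SESN2 rose in every group but CFIm68 knockdown, by 2.77-fold at most (edgeR adjusted p = 4.1e-14).

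DDIT4 also restrains mTORC1 signalling, upstream of the kinase, whereas EIF4EBP1 encodes a substrate of mTORC1 that represses cap-dependent translation. DDIT4 read 38.3, 49.2 and 34.5 CPM in control, 76.05 and 57.05 in CFIm25 knockdown, 62.5, 85.5 and 87.00 in CFIm25 overexpression, 54.3, 47.9 and 46.05 in CFIm68 knockdown and 29.8, 38.4 and 36.9 in CFIm68 overexpression. EIF4EBP1 read 25.8, 26.4 and 30.4 CPM in control, 44.4 and 43.8 in CFIm25 knockdown, 40.3, 45.5 and 54.8 in CFIm25 overexpression, 39.4, 36.9 and 37.6 in CFIm68 knockdown and 33.7, 32.4 and 32.9 in CFIm68 overexpression. DDIT4 rose in both CFIm25 groups without overlap (0.70 ± 0.13 with knockdown and 0.94 ± 0.12 with overexpression) and in CFIm68 knockdown (0.28 ± 0.12), where it overlapped the widely spread controls and did not pass with DESeq2 (adjusted p = 0.2), with other scaling or filtering, or in 5 of 6 fits with a compared library left out. EIF4EBP1 rose in all 4 without overlap with control, in CFIm68 overexpression only with both control replicates 1 and 2 and all 3 overexpression libraries in the fit. VLDLR, a lipoprotein receptor, rose only in CFIm25 overexpression among these comparisons (0.69 ± 0.07). GDF15, a secreted stress cytokine, was below 1 CPM in every library and did not pass in any comparison.

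The CFIm25 knockdown group rests on 2 libraries that differed in these genes. Replicate 1 was above replicate 2 in 44 of 46 genes (95.7%), by a median log2 ratio of 0.242, whereas over all tested genes it was above in 49.6%, with a median of -0.001. ASNS (645 and 428 CPM), CHAC1 (7.95 and 4.55) and DDIT3 (37.9 and 22.4) show the gap. NUDT21 stood at 54.6 and 52.9 CPM in them. Without replicate 1, 29 of 46 genes were higher than control and 1 lower, with a median log2 change of 0.29 in place of 0.42. With replicate 1 left out, the fit takes the lone library to vary like the other groups.

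A direct comparison of the 2 knockdowns asked whether the subunits differ in this response. In CFIm68 knockdown 34 of 46 genes were lower than in CFIm25 knockdown and 0 were higher by edgeR, with a median log2 difference of -0.36, where 13.2% of all genes were lower and 11.1% higher. At an unadjusted p under 0.05 also 0 of the 46 were higher, as with DESeq2 and limma-voom. CHAC1 (-1.83 ± 0.22), SLC7A11 (-1.48 ± 0.12), SLC1A5 (-1.13 ± 0.06) and ATF4 (-1.02 ± 0.07) differed most (edgeR adjusted p = 3.5e-07, 2.3e-10, 8.7e-15 and 4.9e-12). For ATF4 every CFIm68 knockdown library (167, 148 and 150.1 CPM) was below both CFIm25 knockdown libraries (337 and 291). Without CFIm25 knockdown replicate 1, 23 genes were lower and 1, SLC1A4, higher, the median was -0.27, and DDIT3 no longer differed (0.06, edgeR adjusted p = 0.77). The DDIT3 difference, -0.34 ± 0.12, also did not pass with DESeq2 (adjusted p = 0.13).

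The 2 overexpression groups were compared in the same way. In CFIm68 overexpression 39 of 46 genes were lower than in CFIm25 overexpression and 2, ATF5 and ALDH1L2, were higher, with a median log2 difference of -0.59, where 30.8% of all genes were lower and 32.9% higher. SLC7A11 (-2.27 ± 0.11), ATF3 (-1.98 ± 0.10), CHAC1 (-1.93 ± 0.20), CTH (-1.91 ± 0.09) and DDIT3 (-1.74 ± 0.12) differed most, at edgeR adjusted p-values of 3.5e-16, 9.2e-16, 2.7e-09, 1.1e-16 and 2.6e-13. ATF4 mRNA was not among them, at 272, 295 and 296 CPM with CFIm68 and 272, 315 and 295 with CFIm25, a difference of -0.03 ± 0.06 with an interval of -0.15 to 0.10 on the log2 scale. The genes around ATF4 were higher with CFIm68 by a median of 0.24, and with that removed ATF4 differed by -0.27 (adjusted p = 0.00059, with the median taken as exact). ATF4 protein was not measured in these data.

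The 2 direct comparisons share no library, and 30 genes were lower in both. These are 88.2% of the 34 lower between knockdowns and 76.9% of the 39 lower between overexpression groups, or 65.2% of the 46, against 4.93% of all tested genes. Taken singly, 73.9% of the 46 were lower between knockdowns and 84.8% between overexpression groups. The 88.2% and 76.9% are near these shares, so the overlap follows largely from the 2 counts and is not a further result. Among all genes lower between knockdowns, 37.5% were also lower between overexpression groups. The 9 lower between overexpression groups but not past the test between knockdowns were TRIB3, CEBPG, ATF3, SLC1A4, GPT2, WARS1, SARS1, EIF4EBP1 and VLDLR, and the 4 lower between knockdowns but not between overexpression groups were ATF4, SHMT2, ALDH18A1 and ALDH1L2. This split depends on the setting, since ATF4 (-0.27) and SHMT2 (-0.26) were also lower between overexpression groups with the change of neighbouring genes removed (adjusted p = 0.00059 and 0.00015).

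**Figure D4:**
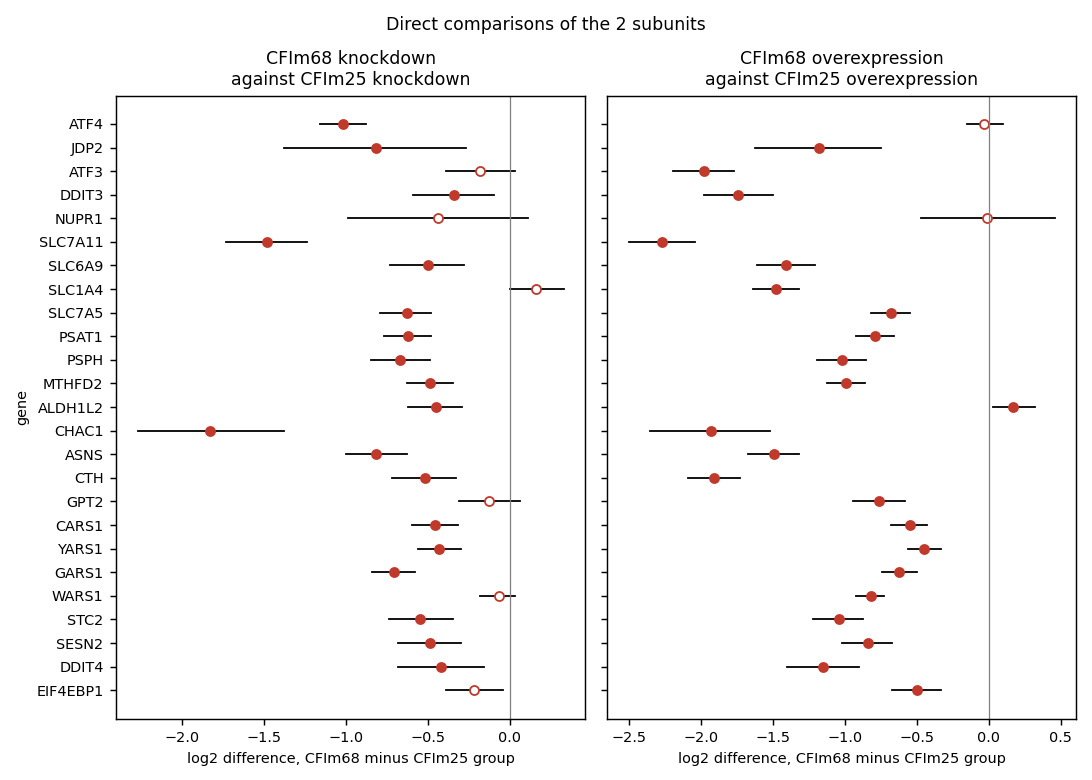
Log2 difference of CFIm68 from CFIm25 knockdown (left) and of CFIm68 from CFIm25 overexpression (right) for the 25 genes described library by library, with bars for 95% intervals, filled points for an adjusted p under 0.05, and different scales in the 2 panels. Most points lie left of 0 in both panels, and ATF4 is at -1.02 in the left panel and at -0.03 in the right one.

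Genes with and without the promoter core are given side by side, with no test of the difference. In CFIm25 overexpression 15 of the 16 genes whose window held the core were higher (median log2 change 0.84) and 17 of the 20 whose window lacked it (0.84), against 27.7% of all genes. In CFIm25 knockdown 13 of 16 (0.40) and 14 of 20 (0.53) were higher, against 24.4%. In CFIm68 overexpression 12 of 16 (0.22) and 9 of 20 (0.24) were higher, against 14.5%, and in CFIm68 knockdown 3 of 16 (-0.01) and 8 of 20 (0.11), against 28.3%. Between the knockdowns 13 of 16 and 14 of 20 were lower with CFIm68, against 13.2% of all genes, and between the overexpression groups 16 of 16 and 16 of 20, against 30.8%. In CFIm25 overexpression against CFIm25 knockdown 15 of 16 and 12 of 20 were higher, against 27.5%. Absence from a 300-base window says only that these letters are not in it.

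Genes of related pathways outside the 46 changed in both directions in CFIm25 overexpression, where 27.7% of all tested genes were higher and 29.1% lower. The 10 tested cytosolic synthetase and synthetase complex genes outside the list had 1 higher and 2 lower in CFIm25 overexpression (median -0.01), beside 12 of 12 higher among the listed ones. HARS1, for histidine, fell (-0.41 ± 0.05), as did VARS1, for valine (-0.92 ± 0.19), and FARSA, a phenylalanine synthetase subunit, did not pass (0.13 ± 0.06). The 16 mitochondrial synthetases had 7 higher and 4 lower (median 0.04), with PARS2 higher (0.62 ± 0.08) and AARS2 and VARS2 lower (-0.56 ± 0.06 and -0.37 ± 0.07). Of 12 tested folate and one-carbon enzymes outside the list 5 were higher and 2 lower (median 0.23). MTHFD1L, the mitochondrial formate-producing enzyme, read 33.9, 33.4 and 34.8 CPM in control, 55.98, 54.02 and 62.02 in CFIm25 overexpression and 60.6 and 55.01 in CFIm25 knockdown, and rose in both (0.75 ± 0.07 and 0.76 ± 0.08). AMT, of the glycine cleavage system, rose in the first (0.38 ± 0.13) and fell in the second (-0.83 ± 0.16), and ALDH1L1, the cytosolic counterpart of ALDH1L2, fell in CFIm68 overexpression (-0.92 ± 0.29), where ALDH1L2 rose.

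The branch of the unfolded protein response run by ATF6 and XBP1 held more lower than higher genes in CFIm25 overexpression. Of its 22 listed genes 12 were lower, 6 higher and 4 did not pass, with a median log2 change of -0.30. Of all tested genes 29.1% were lower there and 27.7% higher. In CFIm25 knockdown the list was near even against control, with 9 lower, 8 higher and 5 not past the test (median 0.03). Of all tested genes 23.2% were lower and 24.4% higher in that comparison. HSPA5, the chaperone BiP of the endoplasmic reticulum, read 858, 872 and 911 CPM in control, 593 and 621 in CFIm25 knockdown, 384, 373 and 341 in CFIm25 overexpression, 826, 837 and 866 in CFIm68 knockdown and 938, 879 and 912 in CFIm68 overexpression. It fell 2.4-fold in CFIm25 overexpression and 1.45-fold in CFIm25 knockdown (edgeR adjusted p = 4.8e-18 and 7e-09). A link of this fall to the ATF4 response genes was not tested. SDF2L1, another protein of that compartment, fell in both too (-1.28 ± 0.16 and -0.74 ± 0.16), whereas SEL1L, of the degradation machinery, rose in both (0.23 ± 0.07 and 0.35 ± 0.07). Set against CFIm25 knockdown, CFIm68 knockdown had 11 of the 22 higher and 5 lower, and CFIm68 overexpression against CFIm25 overexpression 12 higher and 6 lower. The shares of all genes were 11.1% higher and 13.2% lower between knockdowns, and 32.9% and 30.8% between overexpression groups.

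Genes that act upstream of ATF4 were mixed. Of 19 tested eIF2 kinases, phosphatase regulators and related factors 9 were higher and 4 lower in CFIm25 overexpression (median 0.02), 8 and 4 in CFIm25 knockdown, 2 and 7 in CFIm68 overexpression and 8 and 6 in CFIm68 knockdown. The shares of all genes were, in the same order, 27.7% and 29.1%, 24.4% and 23.2%, 14.5% and 15.4%, and 28.3% and 28.1%. EIF2AK3, the kinase PERK, rose by 0.16 ± 0.06 in CFIm25 overexpression and fell in both knockdowns (-0.32 ± 0.07 and -0.64 ± 0.06). IMPACT, an inhibitor of the kinase GCN2, rose in 3 groups (0.69 ± 0.06, 0.62 ± 0.07 and 0.83 ± 0.06). PPP1R15B, a phosphatase subunit that restores eIF2, rose in both overexpression groups (0.19 ± 0.06 and 0.35 ± 0.06) and fell in both knockdowns (-0.19 ± 0.07 and -0.71 ± 0.06). EIF2AK4, which encodes GCN2, had 0 counts in all libraries, was not tested, and was singled out after its values were seen. The annotation used for counting was not given, and whether the 0 reflects the cells or the counting was not tested. Of 19 tested genes of mTORC1 amino acid sensing 2 were higher and 10 lower in CFIm25 overexpression (median -0.22). Among them NPRL2 rose (0.48 ± 0.07) and CASTOR2 and SESN1 fell (-0.70 ± 0.14 and -0.22 ± 0.06), beside the rise of SESN2, a relative of SESN1, given above.

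**Figure D5:**
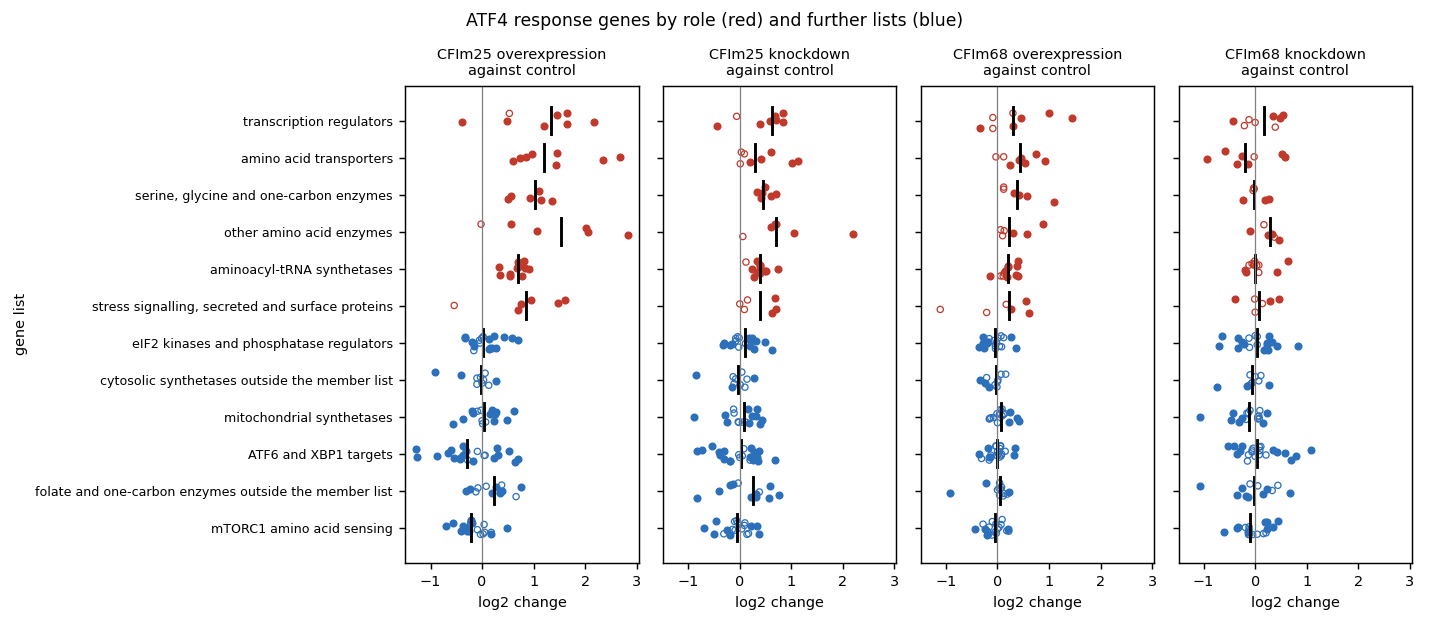
Log2 change of every tested gene in 4 comparisons with control, for the 6 role groups of ATF4 response genes (red) and 6 further lists (blue), with filled points for an adjusted p under 0.05, open points for the rest and a black bar at each list's median. In CFIm25 overexpression the 6 red medians lie between 0.69 and 1.54 and the 6 blue ones between -0.30 and 0.23.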

How the data were processed

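RNA from 14 HEK 293 libraries was prepared with a TruSeq Stranded mRNA kit, per the labels' protocols. Per the submitters' processing notes, the tools were cutadapt 1.16 and STAR 2.7.1a and the build was hg38. How reads were counted, on which annotation and with which strand setting, was not given in the sources used here. Raw counts, deposited by the authors, are whole numbers per gene, and no values normalized by the authors were used.

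Groups came from the sample labels. Gene symbols were matched to GENCODE 29, which also gave exonic lengths (union of exons) and coordinates. Of 18006 genes, 2524 were at 0 in every library. The filterByExpr function of edgeR, with a minimum count of 10 and a minimum total of 15, left 12080 genes. These were fitted with edgeR 4.0.16 (TMM scaling, quasi-likelihood test, 1 coefficient per group over all 14 libraries, R 4.3.3) with Benjamini-Hochberg adjustment over all tested genes in each comparison and a threshold of 0.05. CPM values use TMM-scaled library sizes, SE values come from the quasi-likelihood F statistic, and intervals are at 95%. Totals of 15822467 to 33895308 counts per library and a square root of the common dispersion of 0.0501 set the precision. In counts simulated at these depths, for CFIm25 overexpression against control over 11819 genes, 79% of genes changed 1.5-fold and 89% of genes changed 2-fold were recovered. In each of the other comparisons with control 80% of the 1.5-fold genes and 86% to 94% of the 2-fold genes were recovered. Each simulation changed only 100 genes at each fold, and 8 to 11 unchanged genes were called. In the data 3605 to 6854 genes were called against control, so the recovery there may differ.

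Other settings tried were DESeq2 1.42.0, limma-voom 3.58.1, size factors from median ratios, a replicate block, the compared groups alone, a filter of 1 CPM in 3 libraries, all genes unfiltered, and each library left out. The comparison of the CFIm25 groups with each other and the removal of the median log2 change of the 50 nearest tested genes on the chromosome were added after seeing the data. The p-values under this removal use each gene's own SE and take the median as exact. They leave out the spread among neighbouring genes and may be too small. The 47 genes and all lists were chosen with earlier results of these data known, so no list is independent evidence and no list received a test. Values in every library are given for ATF4, NUDT21, CPSF6 and up to 4 genes per role group by largest called change of at least 0.5 on the log2 scale in the 6 planned comparisons, and up to 3 genes are named per further list. Other genes named were chosen after their values were seen.

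Of the 46 genes 5 share exonic bases with a gene on the same strand and 19 with one on the other strand, and 12 have pseudogenes named for them (among them ATF4, SLC7A5, PSAT1, PSPH, MTHFD2, ASNS, GARS1, WARS1, CARS1 and EIF4EBP1), so the counting could have divided or merged their reads.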

Additional observations from a re-analysis of the deposited data

Results flagged for a closer look

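For 7 of the 46 genes the change against control had opposite directions in the 2 knockdowns or in the 2 overexpression groups, each past the threshold, and the direct difference also passed the edgeR test. In the knockdowns these were ATF4, with a difference of CFIm68 from CFIm25 knockdown of -1.02 on the log2 scale (higher with CFIm25, lower with CFIm68), SLC7A11 (-1.48), SLC1A5 (-1.13), PSPH (-0.67) and GARS1 (-0.71). In the overexpression groups they were ATF3 (-1.98) and WARS1 (-0.82), higher with CFIm25 and lower with CFIm68. For 5 of the 7 one of the opposite calls did not pass in some settings. The fall of WARS1 with CFIm68 overexpression was lost with the change of neighbouring genes removed, where the direct difference was -0.34 (adjusted p = 5.5e-07), and without control replicate 1 or CFIm68 overexpression replicate 2. That of ATF3 was lost with limma-voom and in 4 fits with a library left out, and that of SLC7A11 in CFIm68 knockdown with DESeq2. The fall of PSPH was lost without control replicate 3 or CFIm68 knockdown replicate 3, and its rise in CFIm25 knockdown without replicate 1. The rise of SLC1A5 in CFIm25 knockdown was lost without replicate 1 or control replicate 1. The opposite calls of ATF4 and GARS1 passed under every alternative run.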

How the results depend on the processing

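Of 246 calls of a gene in a comparison, 217 were kept in the same direction under every alternative other than leaving out a library, and 199 under every alternative run. The members higher ranged, when 1 library was left out, from 42 to 43 in CFIm25 overexpression, 29 to 38 in CFIm25 knockdown, 24 to 26 in CFIm68 overexpression and 11 to 14 in CFIm68 knockdown, and the members lower from 23 to 35 between knockdowns and 38 to 40 between overexpression groups. The lowest values of 29 and 23 came without CFIm25 knockdown replicate 1. Small counts moved most: members lower ranged from 0 to 1 in each CFIm25 group and from 0 to 2 in CFIm68 overexpression with a library left out. Members higher between knockdowns were 1 (ATF5) with the compared groups alone and 0 to 1 with a library left out. Members higher between overexpression groups were 1 with the filter of 1 CPM, with DESeq2 and with the compared groups alone, and 1 to 2 with a library left out. Members lower in CFIm25 overexpression against CFIm25 knockdown ranged from 1 to 2. Genes changed between knockdowns, 2929 in all, ranged from 1465 to 2384 with a library left out.

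With the medians of neighbouring genes removed, members higher and lower were 42 and 0 in CFIm25 overexpression, 37 and 0 in CFIm25 knockdown, 23 and 1 in CFIm68 overexpression and 15 and 10 in CFIm68 knockdown. They were 0 and 32 between knockdowns and 2 and 40 between overexpression groups. Genes changed in CFIm68 overexpression were then 2400, against 3605. The medians around the 46 genes ran from -0.35 to 0.28 in CFIm25 overexpression and from -0.48 to 0.49 between overexpression groups, where 16 of 46 were within 0.1 of 0. Under this setting 13 log2 changes turned sign, of which SLC7A5 in CFIm68 knockdown (0.25) and WARS1 in CFIm68 overexpression (0.07) were past the threshold before or after it, and 11 calls were gained and 19 lost. With a library left out, directions turned for values near 0 in ATF4 between overexpression groups (-0.1 to 0.01, above 0 without CFIm25 replicate 2 or CFIm68 replicate 1), SLC3A2 in CFIm25 knockdown (-0.1 to 0.12, below 0 without control replicate 1 at -0.03 or knockdown replicate 1) and EIF4EBP1 between the CFIm25 groups (-0.04 to 0.21, below 0 without overexpression replicate 3). Without CFIm25 knockdown replicate 1 they turned between knockdowns for DDIT3 (range -0.69 to 0.06), ATF3 (-0.39 to 0.02) and NUPR1 (-0.92 to 0.05), and against control for SLC7A1 (-0.00 to 0.18) and STC2 (-0.12 to 0.38). The cause was not tested.

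Samples with the same replicate number deviated together weakly or not at all (correlations of -0.073 to 0.251, over 0.1 in 4 of 26 pairs). The highest were between the 2 overexpression groups, 0.251 for replicate 1 and 0.174 for replicate 3. Replicate 1 of one of these groups with replicate 3 of the other gave -0.273 and -0.15. No label says whether the numbers mark a shared batch, and this was not tested. A replicate block gave 4064 genes changed in CFIm68 overexpression, against 3605 without it. With a replicate block, members higher and lower were 42 and 1 in CFIm25 overexpression, 32 and 3 in CFIm68 overexpression, 14 and 12 in CFIm68 knockdown, 36 and 1 in CFIm25 knockdown, 0 and 35 between knockdowns and 2 and 39 between overexpression groups. Low counts limit JDP2, NUPR1, CHAC1, CEBPG and GDF15, whose SE values are the widest of the 46 genes.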
